A study of Homo sapiens with 6 samples.

Results

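The genes described here mostly build and drive the mitotic spindle, the kinetochore and the centrosome. They were chosen by symbol from the protein-coding genes of 1 deposited expression table: the kinesins (KIF with a number), the centromere proteins (CENP), the centrosomal proteins (CEP), the BUB, polo-like (PLK) and TACC genes, the A- and B-type cyclins, aurora kinases A and B, and NDC80, NUF2, CDK1, TTK, TPX2 and ASPM. This gave 93 of the 10542 listed genes, of which 9222 are protein coding. Among the 93 are 16 kinesins of transport, cilia and other roles and 5 members placed in no mitotic role group. GENCODE 29 holds 130 protein-coding genes whose symbols meet the rule. The other names, among them PLK1, CDC20, PRC1, TACC3 and KIF2C, were not analysed here.

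Poly(A) RNA of DU145 cells, an established human prostate carcinoma line, was sequenced in 6 libraries. The 3 DU145-TFEB libraries came from cells given a lentivirus that overexpresses TFEB, a transcription factor of lysosomal genes, and the 3 DU145-vector libraries from cells given the empty lentivirus. The labels give both the same culture conditions. They name neither the promoter that drives TFEB nor separate cultures for the replicates, so p-values measure only the spread between these libraries, which may be technical.

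In mitosis, cyclin B with CDK1 triggers entry, a pair of centrosomes organises a bipolar spindle, and kinesin motors slide and cap its microtubules. Kinetochores assemble on centromeric chromatin and capture the microtubule ends, while the spindle checkpoint holds anaphase until all of them are attached. Many of these genes are transcribed in G2 and M phase. Their promoters often hold a cell cycle genes homology region (CHR), at which the DREAM complex silences them earlier in the cycle, and CCAAT boxes, at which NF-Y activates them. In bulk RNA, fewer cells in G2 or mitosis and less of an RNA in each cell cannot be told apart.

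TFEB itself stood at 6325, 6301 and 6036 normalized counts in the DU145-TFEB libraries and at 127.4, 123.9 and 125.0 in the DU145-vector libraries, a 49.6-fold difference (log2 fold change 5.62 ± 0.075 SE, n = 3 per group, limma adjusted p = 3.18e-10), as the labels state. The keratins KRT8, KRT18 and KRT19, which mark epithelial cells, were present in all 6 libraries and were lower in DU145-TFEB, by log2 fold changes of -0.68 (limma adjusted p = 6.63e-04), -0.78 (3.28e-04) and -0.38 (0.0107). Their part in the results below was not tested. Per library, 13999961 to 16511477 reads fell on listed genes, and the size factors by which the authors had divided the counts lay between 0.950 and 1.10. Every listed gene has a deposited adjusted p below 0.05, so the table is a selection made on these same libraries, and a pass of the test below is no independent evidence that a gene changed.

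Stretches of the promoter are shown for 8 members, with log2 fold changes from -2.06 (CEP55) to 1.31 (KIF17). They are given as in RefSeq (GRCh38.p14), in the direction of transcription. Each starts 150 bases before the RefSeq start and ends before the first exon base that GENCODE 29 places in that stretch. KIF11 (chr10:92592980-92593129, plus strand), CENPF (chr1:214603045-214603194, plus), ASPM (chr1:197146695-197146819, minus) and CEP55 (chr10:93496462-93496611, plus) fell by more than 1.5 on the log2 scale, CDK1 (chr10:60778181-60778330, plus) fell by less, and AURKB (chr17:8210255-8210375, minus), KIF22 (chr16:29790601-29790718, plus) and KIF17 (chr1:20718018-20718157, minus) were higher in DU145-TFEB as deposited. CEP55 was picked after its values were seen. Capitals mark CHR letters (TTTGAA, or its variant TTTAAA) and CCAAT boxes on either strand, so that TTCAAA and ATTGG are the same motifs on the other strand:
KIF11: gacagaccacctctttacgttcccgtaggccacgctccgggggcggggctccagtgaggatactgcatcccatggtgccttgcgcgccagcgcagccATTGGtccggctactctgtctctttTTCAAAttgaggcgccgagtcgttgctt
CEP55: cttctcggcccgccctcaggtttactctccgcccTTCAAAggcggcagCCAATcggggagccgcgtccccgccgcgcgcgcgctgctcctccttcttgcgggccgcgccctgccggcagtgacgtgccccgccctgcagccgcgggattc
ASPM: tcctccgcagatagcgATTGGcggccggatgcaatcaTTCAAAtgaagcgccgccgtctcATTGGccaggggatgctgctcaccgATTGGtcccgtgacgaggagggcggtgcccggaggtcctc
CENPF: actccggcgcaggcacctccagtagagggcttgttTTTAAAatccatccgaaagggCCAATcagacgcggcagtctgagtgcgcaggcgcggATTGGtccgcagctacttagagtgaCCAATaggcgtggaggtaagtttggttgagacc
CDK1: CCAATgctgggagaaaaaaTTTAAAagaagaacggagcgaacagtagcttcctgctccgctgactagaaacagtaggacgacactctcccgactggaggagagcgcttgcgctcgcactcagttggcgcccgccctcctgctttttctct
KIF22: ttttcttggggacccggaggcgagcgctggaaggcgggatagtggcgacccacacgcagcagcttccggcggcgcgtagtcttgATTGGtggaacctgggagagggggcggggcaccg
AURKB: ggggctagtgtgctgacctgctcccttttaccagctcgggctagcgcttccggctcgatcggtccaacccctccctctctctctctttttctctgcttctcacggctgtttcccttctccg
KIF17: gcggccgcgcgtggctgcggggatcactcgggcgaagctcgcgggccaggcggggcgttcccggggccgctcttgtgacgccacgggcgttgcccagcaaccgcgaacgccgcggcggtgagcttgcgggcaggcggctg

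The CHR of KIF11 lies 28 to 23 bases before the start and a CCAAT box lies 53 to 49 bases before it. CEP55 carries a CHR at 116 to 111 bases and a CCAAT box at 102 to 98 bases before the start. ASPM carries a CHR at 113 to 108 bases, and CENPF and CDK1 carry the variant at 115 to 110 and at 131 to 126 bases. The stretch of KIF22 holds a CCAAT box and no CHR letters, and those of AURKB and KIF17 hold none of these motifs. The printed stretches are a selection, and their split between lower and higher genes does not hold for all members. KIF14 (log2 fold change -2.25), CEP192 (-2.13) and CCNA2 (-0.95) were lower, and their stretches, not printed, held a CCAAT box and no CHR letters. In the longer windows counted below, KIF14 and CEP192 held a CHR form and CCNA2 did not. The higher members CENPA (0.24) and CEP89 (0.44) also held CHR letters there.

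Most of the 93 genes were lower in DU145-TFEB. With limma on log2(normalized count + 1), fitted over all 10542 genes and with adjusted p below 0.05, 73 members (78.5%) were lower and 20 (21.5%) were higher, beside 52.4% lower and 47.6% higher among all listed genes. Differentially expressed genes (DEGs), which also differed by more than 1.5 on the log2 scale, numbered 30 lower members (32.3%), against 16.5% of all listed genes, and 0 higher members, against 2.54%. The 2 groups of libraries overlapped for 0 of the 93 genes, and did not overlap for 99.3% of all listed genes, so this says little about the members. Each member alone gave an exact two-sided permutation p of 0.1, the smallest that 3 libraries against 3 allow. The median log2 fold change was -1.13 over the members and -0.36 over all listed genes, and the members ranged from -2.33 (TACC1) to 1.31 (KIF17). At the DEG threshold, CEP57 lay just inside at -1.504 and CEP44 just outside at -1.43.

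The members are also poorer in G and C than the table as a whole, and the fold changes of the whole table followed GC content. The median GC content of the longest transcript was 42.3% over the members and 47.3% over all listed genes, and the median gene length was 6131 against 4979 bases. Across the 93 members the log2 fold change correlated with GC content (Pearson r = 0.794, Spearman rho = 0.723), as it did across all listed genes (rho = 0.739). Genes share libraries and are not independent replicates, so these values are descriptions. For that reason the medians of the role groups and the fold changes of most named genes are set beside those obtained after the trend against GC content and gene length had been removed from every library. Counts of lower and higher genes in a role group are those of the deposited scaling unless stated otherwise. Over all listed genes, that scaling gave 52.4% lower and 47.6% higher, with 16.5% lower and 2.54% higher DEGs. With the trend removed, the median was -0.22 over the members and 0.02 over all listed genes, 46 members (49.5%) passed as lower against 28.5% of all genes, 20 (21.5%) passed as higher against 33% of all genes, and 27 did not pass. Of the 30 DEGs, 25 still passed as lower and 0 stayed beyond the fold-change threshold, which 2.38% of all genes passed as lower and 2.82% as higher. In all, 58 members were then lower and 35 higher, and 25 members changed sign.

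**Figure D1:**
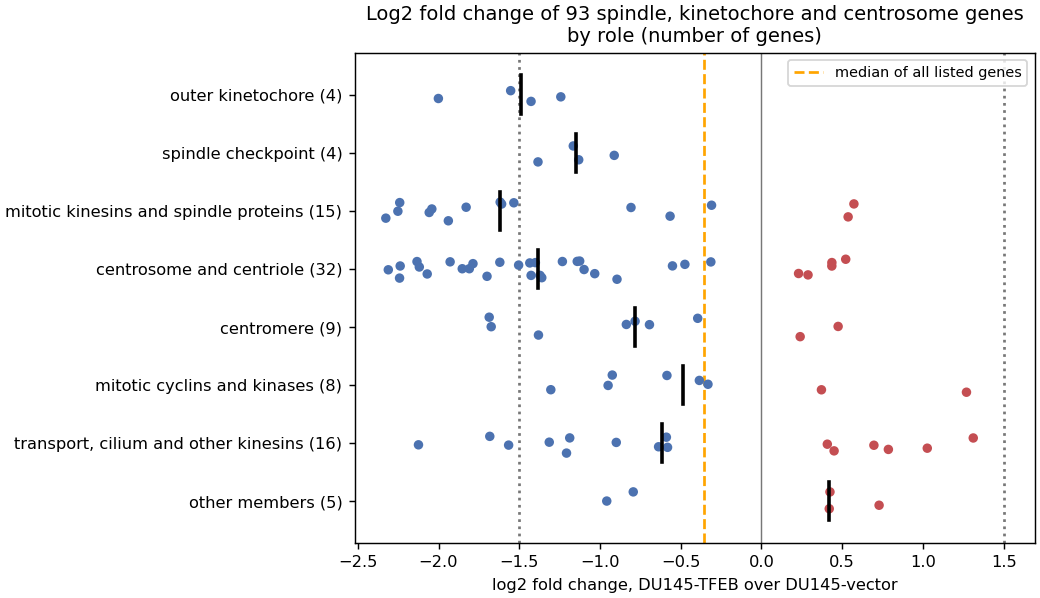
Log2 fold change (DU145-TFEB over DU145-vector, x axis) of each of the 93 genes, 1 point per gene, in 8 role groups (rows, with the number of genes), with points spread vertically only for legibility. Blue points are lower and red points higher in DU145-TFEB, black bars are group medians, dotted lines mark the threshold of 1.5 and the dashed line is the median of all listed genes, -0.36. The outer kinetochore and checkpoint genes all lie below 0, and with the GC and length trend removed 25 of the 93 genes change sign.

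The mitotic kinesins and spindle proteins fell furthest. Of 15 such genes, 13 were lower, 10 of them DEGs, and 2 were higher, with a median of -1.62 (range -2.33 to 0.57) that became -0.48 with the trend removed. KIF11 (ENSG00000138160, chr10:92593286-92655395), the kinesin that slides antiparallel microtubules apart to separate the spindle poles, stood at 648.2, 570.5 and 767.3 normalized counts in DU145-TFEB and at 2777, 3018 and 2370 in DU145-vector. All DU145-TFEB libraries lay far below all DU145-vector libraries, a 4.11-fold difference (log2 fold change -2.04 ± 0.125 SE, adjusted p = 2.71e-06, trend removed -0.83). KIF23 (ENSG00000137807, chr15:69414246-69448427), the motor of the central spindle needed for cytokinesis, had 1205, 1122 and 1300 normalized counts against 3633, 4109 and 3348. Its groups were tight and lay 3.06-fold apart (-1.61 ± 0.0935 SE, adjusted p = 2.42e-06, trend removed -0.62). ASPM (ENSG00000066279, chr1:197084128-197146694), which focuses microtubule ends at the spindle poles, had 719.7, 406.7 and 914.8 against 2359, 2824 and 2275. The DU145-TFEB libraries differed among themselves more than for KIF23, with replicate 2 lowest (-1.94 ± 0.245 SE, adjusted p = 6.40e-05, trend removed -0.48).

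TACC1, a coiled-coil protein of the family that stabilises spindle microtubules, had the lowest fold change of all members. It stood at 330.4, 319.4 and 414.3 normalized counts in DU145-TFEB and at 1768, 1932 and 1625 in DU145-vector (-2.33 ± 0.118 SE, adjusted p = 2.30e-06), and at -1.46 it was also the lowest member with the trend removed. KIF15 (-2.24) and CEP55 (-2.06), picked after their values were seen, followed it on that scale at -1.22 and -1.20. KIF15 is a motor that backs up KIF11, and CEP55 works at the midbody in the last step of cytokinesis.

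TPX2 (ENSG00000088325, chr20:31739271-31801805), which activates aurora A and nucleates microtubules around chromosomes, was the most abundant gene of this group and fell little. Its normalized counts were 5023, 5577 and 5126 against 8288, 7499 and 7497, a 1.48-fold difference (-0.57 ± 0.0724 SE, adjusted p = 6.86e-05, trend removed -0.24). KIF22 (ENSG00000079616, chr16:29790719-29805385), a motor that binds chromosome arms, was the highest of the group, with 3548, 3872 and 3326 against 2587, 2178 and 2465 (0.57 ± 0.0880 SE, adjusted p = 2.13e-04), but with the trend removed it stood at -0.01. TACC2, picked after its values were seen, was the other higher gene of the group, at 0.54 and with the trend removed at 0.64.

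**Figure D2:**
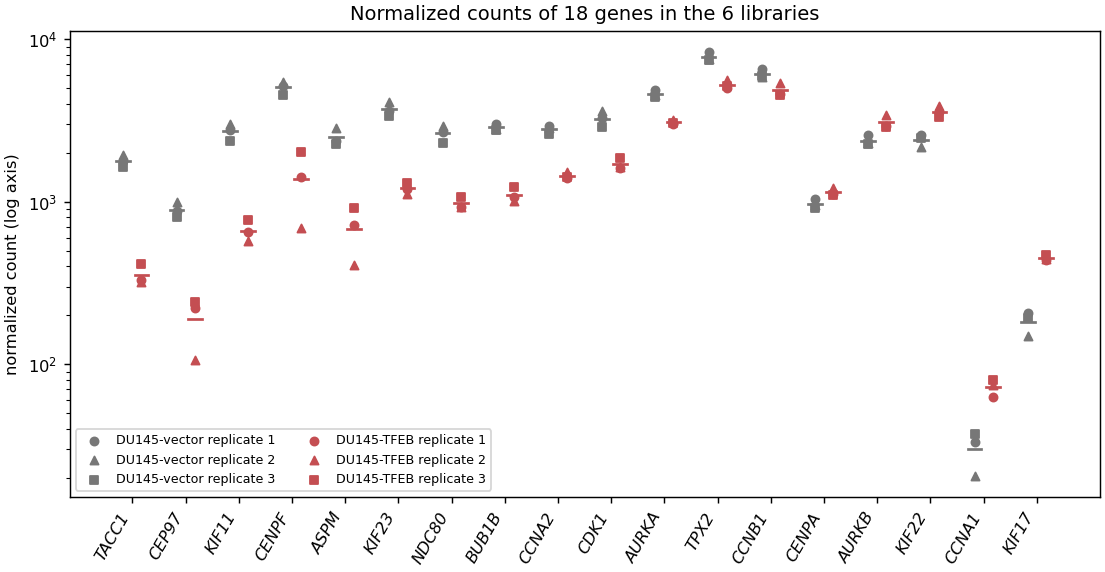
Normalized counts (y axis, log scale) of 18 of the genes in the 6 libraries, grey for DU145-vector and red for DU145-TFEB, with a symbol for each replicate number and a bar at each group mean. CENPF, ASPM and CEP97 show the lowest DU145-TFEB value in replicate 2, while the groups of TPX2, CCNB1, CENPA and AURKB lie close together without overlapping; CDK1, CCNB1, AURKB and KIF22 change sign with the GC and length trend removed.

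All 4 outer kinetochore genes were lower, 2 of them DEGs, with a median of -1.49 (-0.30 with the trend removed). CENPF (ENSG00000117724, chr1:214603195-214664588), a large coiled-coil protein that accumulates in G2 and coats the kinetochore, stood at 1426, 687.9 and 2019 normalized counts in DU145-TFEB and at 5116, 5460 and 4553 in DU145-vector. The groups lay well apart although DU145-TFEB replicate 2 held fewer counts than the other 2 libraries of its group (-2.001 ± 0.310 SE, adjusted p = 2.24e-04, trend removed -0.85). NDC80 (ENSG00000080986, chr18:2571511-2616635) and NUF2 (ENSG00000143228, chr1:163266576-163355764) are partners in the complex that grips microtubule ends. NDC80 had 926.0, 932.7 and 1073 normalized counts against 2669, 2922 and 2313 (-1.43 ± 0.102 SE, adjusted p = 4.19e-06, trend removed -0.43). NUF2 had 400.9, 422.2 and 470.4 against 1036, 1099 and 930.0 (-1.24 ± 0.102 SE, adjusted p = 6.52e-06), and with the trend removed it stood at -0.17 and did not pass (adjusted p = 0.103). CENPE (ENSG00000138778, chr4:103105806-103198409), the kinesin that carries chromosomes to the metaphase plate, had 312.5, 192.9 and 390.4 against 788.1, 1036 and 734.0 (-1.55 ± 0.236 SE, adjusted p = 1.97e-04), and with the trend removed it stood at 0.01 (adjusted p = 0.912). CENPE, with a GC content of 35.3%, was the poorest in G and C of these 4 genes.

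The 4 spindle checkpoint genes were all lower, with 0 DEGs and a median of -1.15 (-0.17 with the trend removed). BUB1B (ENSG00000156970, chr15:40161023-40221136), which in the checkpoint complex blocks the anaphase-promoting complex, stood at 1066, 1008 and 1234 normalized counts in DU145-TFEB and at 3024, 2819 and 2769 in DU145-vector (-1.38 ± 0.0896 SE, adjusted p = 3.26e-06, trend removed -0.61). BUB1 (ENSG00000169679, chr2:110637698-110678114), a kinase that marks centromeric histones, had 1506, 1491 and 1686 against 3822, 3284 and 3408 (-1.17 ± 0.0843 SE, adjusted p = 4.28e-06, trend removed -0.22). TTK (ENSG00000112742, chr6:80003887-80042527), the kinase that starts the checkpoint signal at unattached kinetochores, had 428.3, 395.8 and 535.8 against 1027, 1018 and 917.0. For BUB1B, BUB1 and TTK the groups were at least 2.18-fold apart, and TTK (-1.13 ± 0.121 SE, adjusted p = 2.40e-05) did not pass with the trend removed, at -0.12. BUB3 (ENSG00000154473, chr10:123154277-123170467), the adaptor that brings BUB1 and BUB1B to kinetochores, had 2715, 2701 and 3015 against 5266, 5722 and 4888 (-0.91 ± 0.0807 SE, adjusted p = 8.97e-06), and it turned to 0.24 with the trend removed (adjusted p = 0.0199).

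The mitotic cyclins and kinases changed less. Of 8 genes, 6 were lower and 2 higher, with 0 DEGs and a median of -0.48 that became 0.01 with the trend removed. CCNA2 (ENSG00000145386, chr4:121816444-121823933), the cyclin of S phase and G2, stood at 1402, 1525 and 1420 normalized counts in DU145-TFEB and at 2923, 2861 and 2619 in DU145-vector (-0.95 ± 0.0750 SE, adjusted p = 5.80e-06, trend removed -0.22). CDK1 (ENSG00000170312, chr10:60778331-60794852), the kinase of mitotic entry, had 1618, 1629 and 1870 against 3276, 3591 and 2864 (-0.92 ± 0.0985 SE, adjusted p = 2.34e-05), and stood at 0.31 with the trend removed. AURKA (ENSG00000087586, chr20:56369389-56392337), the centrosomal aurora kinase, had 3022, 3164 and 3029 against 4893, 4554 and 4392 (-0.59 ± 0.0679 SE, adjusted p = 3.81e-05, trend removed -0.28). The 3 genes thus fell by at least 1.502-fold, and only CDK1 among them reversed when the trend was removed.

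CCNB1 (ENSG00000134057, chr5:69167010-69178245), cyclin B1, differed least of the lower genes of this group. Its normalized counts were 4626, 5371 and 4547 in DU145-TFEB and 6525, 5841 and 5904 in DU145-vector (-0.33 ± 0.0836 SE, adjusted p = 0.00381). With size factors estimated again by DESeq2 over the listed genes it stood at -0.09 and did not pass (adjusted p = 0.354), and with the trend removed at 0.26 (adjusted p = 0.0464). AURKB (ENSG00000178999, chr17:8204733-8210600), the kinase of the chromosomal passenger complex, was higher, with 2924, 3420 and 2891 against 2556, 2308 and 2263 (0.37 ± 0.0874 SE, adjusted p = 0.00261), but stood at -0.10 with the trend removed (adjusted p = 0.264). The 2 aurora kinases thus had opposite directions as deposited, and with the trend removed both values were below 0. CCNA1 (ENSG00000133101, chr13:36431520-36442882), an A-type cyclin best known from male meiosis, was low throughout but clearly apart, at 63.13, 74.61 and 79.95 against 33.33, 20.48 and 37.00 (1.27 ± 0.251 SE, adjusted p = 9.84e-04). It kept a log2 fold change of 1.18 with the trend removed, the highest of all members on that scale. CCNB3 (ENSG00000147082, chrX:50202713-50351910), another cyclin of meiosis, had 44.19, 36.40 and 36.34 against 97.04, 109.2 and 87.00 (-1.30 ± 0.183 SE, adjusted p = 1.21e-04, trend removed -0.66).

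Per kilobase of exon, cyclin B1 was the most abundant of the 93 genes in both groups, at 2381 normalized counts per kb in DU145-vector and 1895 in DU145-TFEB, followed by TPX2 at 2153 and 1454. These levels are on the deposited scaling only. AURKB, whose direction reverses with the trend removed, moved from rank 7 in DU145-vector to rank 3 in DU145-TFEB, with levels of 1060 and 1374 per kb, and AURKA moved from rank 3 to rank 4, with 1575 and 1049. KIF5B dropped from rank 4 at 1165 per kb to rank 14 at 382.4 per kb.

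The 9 centromere genes were split. In all, 7 were lower, 2 of them DEGs, and 2 were higher, with a median of -0.78 (range -1.69 to 0.47, trend removed -0.29). CENPI (ENSG00000102384, chrX:101098218-101163681), a subunit of the constitutive network on centromeric chromatin, stood at 235.7, 182.9 and 221.2 normalized counts in DU145-TFEB and at 651.8, 723.7 and 680.0 in DU145-vector (-1.69 ± 0.120 SE, adjusted p = 4.10e-06, trend removed -0.72). CENPA (ENSG00000115163, chr2:26764289-26801067), the histone H3 variant that defines the centromere, was slightly higher, with 1116, 1218 and 1098 against 1043, 948.0 and 917.0. Its lowest DU145-TFEB library lay just above its highest DU145-vector library (0.24 ± 0.0852 SE, adjusted p = 0.0199, trend removed 0.33), and the call was lost without DU145-TFEB replicate 2 (adjusted p = 0.0518) or without DU145-vector replicate 3 (adjusted p = 0.0769). CENPB (ENSG00000125817, chr20:3783851-3786690), which binds the satellite repeats of centromeres, had 2175, 2531 and 1996 against 1638, 1508 and 1657 (0.47 ± 0.0958 SE, adjusted p = 0.00110), and stood at -0.34 with the trend removed (adjusted p = 0.00173). CENPK and CENPQ, picked after their values were seen, are the members with the lowest GC content, 32.9% and 33.9%. They stood at -0.84 and -0.78 as deposited and at 0.60 and 0.59 with the trend removed.

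The centrosome and centriole genes form the largest group. Of 32 genes, 27 were lower, 13 of them DEGs, and 5 were higher, with a median of -1.39 (range -2.31 to 0.52). The median became -0.04 with the trend removed, when 14 passed as lower, 7 as higher and 11 did not pass. Among all genes, 28.5% then passed as lower and 33% as higher. CEP97 (ENSG00000182504, chr3:101723925-101770562), which with CCP110 caps the centriole and keeps it from growing a cilium, stood at 222.0, 105.6 and 241.9 normalized counts in DU145-TFEB and at 878.3, 992.9 and 806.0 in DU145-vector. DU145-TFEB replicate 2 was the lowest library, and the groups lay 4.70-fold apart (-2.31 ± 0.270 SE, adjusted p = 3.95e-05, trend removed -0.83). CEP290 (ENSG00000198707, chr12:88049014-88142216), a gatekeeper at the base of the cilium, had 201.0, 144.7 and 261.7 against 538.1, 585.2 and 413.0 (-1.36 ± 0.213 SE, adjusted p = 2.37e-04), and stood at 0.19 with the trend removed (adjusted p = 0.158). The remaining DEGs of the group ranged from -2.24 (CEP170) to -1.504 (CEP57) and include PLK4 (-1.70), the kinase that starts centriole duplication, and CEP152 (-2.24) and CEP192 (-2.13), which recruit it. With the trend removed these stood at -0.52, -1.03 and -0.99. These 5 genes were picked after their values were seen.

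The higher genes of the group were CEP85, CEP164, CEP250, CEP89 and CEP131, between 0.23 and 0.52. CEP250 (ENSG00000126001, chr20:35455164-35519280), which ties the pair of centrioles together, was the most abundant, with 3474, 3514 and 3804 normalized counts against 2925, 2511 and 2555 (0.44 ± 0.0802 SE, adjusted p = 6.36e-04), and rose to 0.69 with the trend removed. CEP131 (ENSG00000141577, chr17:81189593-81222999), a protein of the satellites around the centrosome, was the highest, with 978.6, 991.8 and 858.7 against 702.8, 601.8 and 665.0 (0.52 ± 0.0970 SE, adjusted p = 6.74e-04), but with the trend removed it stood at -0.26. CEP131, at 65.6% GC, is the richest of the 32 in G and C. CEP126 had the fewest reads of all members, 7 in DU145-TFEB replicate 2.

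The 16 kinesins of transport and cilia, which are not parts of the spindle, moved in both directions. In all, 10 were lower (62.5%), 3 of them DEGs (18.8%), and 6 were higher, with a median of -0.61 (range -2.12 to 1.31, trend removed -0.24). Of all listed genes, 52.4% were lower and 16.5% were lower DEGs, so these counts say little about these kinesins. KIF21A (ENSG00000139116, chr12:39293228-39443390), which restrains microtubule growth at the cell cortex, stood at 290.4, 152.0 and 291.8 normalized counts in DU145-TFEB and at 959.6, 1195 and 940.0 in DU145-vector (-2.12 ± 0.233 SE, adjusted p = 2.73e-05, trend removed -0.98). KIF5B (ENSG00000170759, chr10:32009010-32056431), the conventional kinesin of vesicle and organelle transport, had 2338, 1334 and 3069 against 6781, 7618 and 6134 (-1.68 ± 0.247 SE, adjusted p = 1.59e-04, trend removed -0.46). KIF17 (ENSG00000117245, chr1:20664014-20718017), a motor of cilia and dendrites, had the highest log2 fold change of all members. It stood at 435.6, 446.8 and 469.3 against 207.8, 148.2 and 192.0, a 2.47-fold rise (1.31 ± 0.140 SE, adjusted p = 2.38e-05) that was 0.59 with the trend removed. All 6 higher genes of this group had a GC content of at least 54.6%, and KIF26A among them, picked after its values were seen, went from 0.79 to -0.03 with the trend removed.

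The 5 remaining members were placed in none of these role groups. PLK2 (ENSG00000145632, chr5:58453982-58460260), a stress-responsive kinase of the polo family, stood at 932.3, 1154 and 962.5 normalized counts against 1855, 2156 and 1901 (-0.96 ± 0.102 SE, adjusted p = 2.28e-05, trend removed -0.62). CCNB1IP1 (ENSG00000100814, chr14:20311368-20333312), a ligase of meiotic crossing over, had 3545, 3474 and 3572 against 2805, 2461 and 2637 (0.42 ± 0.0706 SE, adjusted p = 3.45e-04, trend removed 0.78). CENPV (ENSG00000166582, chr17:16342534-16353656) was the highest of them, with 468.2, 589.6 and 519.2 against 320.5, 302.3 and 324.0 (0.73 ± 0.112 SE, adjusted p = 2.10e-04, trend removed 0.30).

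**Figure D3:**
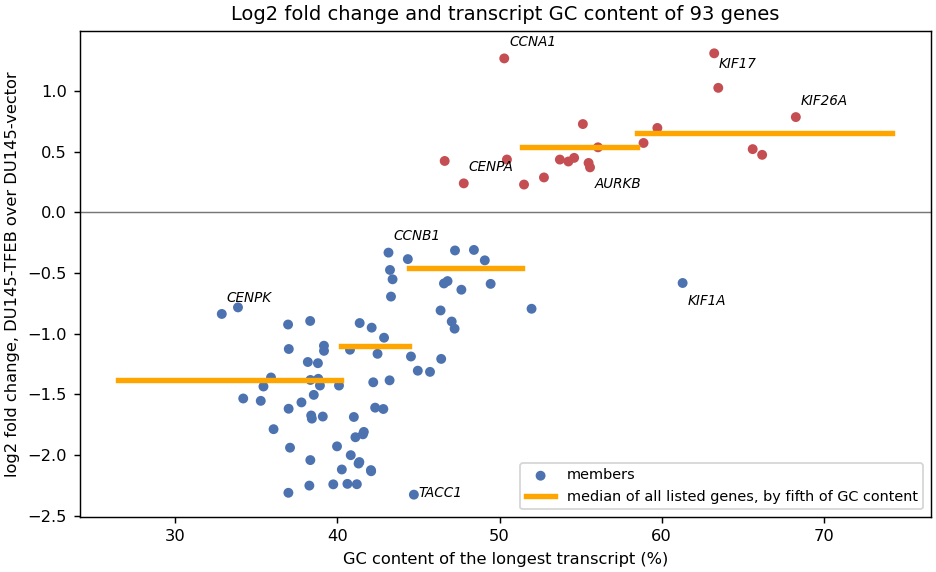
Log2 fold change (y axis) of the 93 genes against the GC content of their longest transcript in percent (x axis), blue for lower and red for higher in DU145-TFEB. Orange bars are the median log2 fold change of all listed genes in each quintile of GC content, from -1.38 in the lowest to 0.66 in the highest, and the member points follow the bars, with TACC1, KIF1BP (52.0% GC, -0.79) and KIF1A among those below and CCNA1 among those above them.

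Members were concentrated where GC content was low. The lowest 2 quintiles of GC content, each with about the same number of listed genes, held 30 and 26 members, and the highest 2 held 10 and 8. In the lowest quintile (up to 40.2% GC) the member median was -1.47 and that of all listed genes -1.38. In the second (40.2% to 44.4%) these were -1.61 and -1.10, and 18 of the 26 members lay below the listed median. In the third they were -0.59 and -0.46, in the fourth 0.41 and 0.54, and in the highest 0.63 and 0.66. The lower DEGs had GC contents between 34.2% and 44.7% (median 40.1%) and the higher members between 46.6% and 68.3% (median 55.3%). These ranges did not overlap, but the higher members were not held to the fold-change threshold. Lower members short of that threshold reached into the range of the higher ones, among them KIF1BP at 52.0% and KIF1A at 61.3%.

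The same tilt was seen library by library. For each library, the median deviation of the richest quintile of genes from their own 6-library means, minus that of the poorest quintile, was 0.97, 1.31 and 0.69 (log2) in DU145-TFEB replicates 1 to 3 and -0.90, -1.26 and -0.86 in DU145-vector. The median deviation of the members was -0.52, -0.66 and -0.33 in DU145-TFEB and 0.48, 0.66 and 0.45 in DU145-vector. Within each group, then, the library with the strongest tilt also lay furthest from 0 for the members. Among the 30 lower DEGs, DU145-TFEB replicate 2 was the lowest of the 6 libraries for 28, DU145-TFEB replicate 3 was the highest of its group for 29, and DU145-vector replicate 2 was the highest of its group for 29. Their median coefficient of variation was 32.3% in DU145-TFEB and 10.6% in DU145-vector. Without DU145-TFEB replicate 2 the lower DEGs numbered 22 and the median of the members was -1.04. The share of lower DEGs among all listed genes then fell as well, from 16.5% to 12.2%. All libraries of a group tilt the same way, so the tilt and the groups cannot be told apart.

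**Figure D4:**
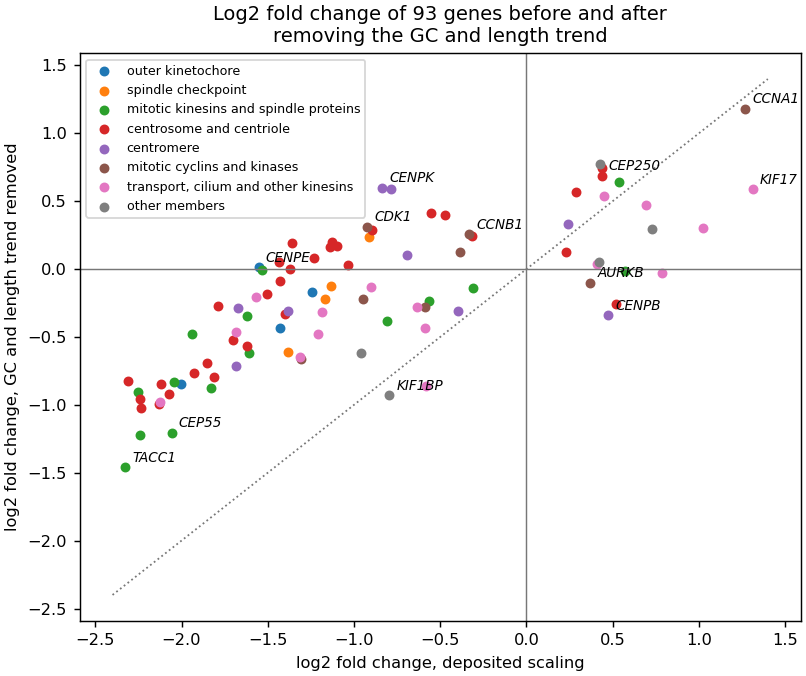
Log2 fold change of the 93 genes with the deposited scaling (x axis) and after the trend against GC content and gene length had been removed from each library (y axis), coloured by role group, with a dotted line of equality. Most lower genes move up towards 0, and CENPK, CDK1 and CCNB1 cross above it while AURKB and CENPB cross below, whereas TACC1, CEP55 and CCNA1 stay far from 0.

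The other genes of the pathway, from lists of mitotic genes with other symbols, were also mostly lower. Of 130 listed genes, 99 were lower (76.2%), 39 of them DEGs (30.0%), and 31 were higher, 1 of them a DEG, beside the 52.4%, 16.5%, 47.6% and 2.54% of all listed genes. Their median was -0.93, and with the trend removed -0.22, when 66 passed as lower, 20 as higher and 44 did not pass. Among all genes, 28.5% then passed as lower and 33% as higher. In condensin, cohesin and the chromosome scaffold, 16 of 18 genes were lower, 11 of them DEGs, with a median of -1.76 (-0.53 with the trend removed). TOP2A, the topoisomerase that untangles sister chromatids, was the lowest, with 3433, 2125 and 4890 normalized counts against 19387, 18210 and 16502 (-2.45 ± 0.240 SE, adjusted p = 1.50e-05, trend removed -1.20), and NCAPH2, a subunit of condensin II, stood at 0.35 and with the trend removed at -0.36.

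Of all listed genes, 52.4% were lower and 16.5% were lower DEGs. Among 28 centrosome genes without a CEP symbol, 21 were lower (75%), 12 of them DEGs (42.9%), and 7 were higher. CCP110, the partner of CEP97 in the centriole cap, was the lowest at -2.35 (trend removed -0.94), and FBF1 of the distal appendages the highest at 0.93 (trend removed 0.26). Of the 21 partners of the kinetochore and checkpoint, 18 were lower (85.7%), 3 of them DEGs (14.3%, below the share of all listed genes). KNL1, the scaffold that recruits BUB1, stood at -2.15 (trend removed -0.72). SPC24, a subunit of the same complex as NDC80 and NUF2, was the single higher DEG, with 1523, 1798 and 1604 normalized counts against 618.5, 475.9 and 575.0 (1.56 ± 0.113 SE, adjusted p = 4.28e-06, trend removed 1.25). Of these 3 subunits NDC80 was thus lower and SPC24 higher on both scales, while NUF2 did not pass with the trend removed.

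The counts of the next lists stand beside 52.4% lower and 16.5% lower DEGs among all listed genes. Of 29 spindle and microtubule factors, 21 were lower (72.4%), 6 of them DEGs (20.7%), from CKAP2L at -2.06 to the augmin subunit HAUS4 at 0.90. With the trend removed these stood at -0.96 and 0.70. Of 16 genes of the anaphase-promoting complex and separase, 10 were lower (62.5%) and 2 of them DEGs (12.5%), near or below the shares of all listed genes. They ranged from CDC27 at -1.72 to ANAPC11 at 0.90, both subunits of the complex. With the trend removed these 2 stood at -0.30 and 0.37, and 8 of the 16 genes were lower, with a median of 0.01. Of 13 regulators of mitotic entry and G2/M transcription, 9 were lower (69.2%), 3 of them DEGs (23.1%). They ranged from RBL1, a pocket protein of the complex that silences CHR promoters, at -2.22 (trend removed -1.06) to the CDK1-activating phosphatase CDC25B at 0.69 (trend removed 0.09). Of 5 genes of the passenger complex and cytokinesis, 4 were lower, 2 of them DEGs, from ECT2, which starts the cleavage furrow, at -2.36 (trend removed -1.09) to BIRC5, the survivin partner of AURKB, at 0.34 (trend removed 0.14).

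Promoter letters were counted in the 250 bases before the RefSeq start for the 79 members that matched. Of these, 19 (24.1%) held the CHR letters TTTGAA, against 8.11% of 7621 listed genes with a promoter and 13.6% of all 27305 RefSeq promoters. The variant TTTAAA was held by 13 members (16.5%), against 6.71% and 11.4%, and CCAAT by 44 (55.7%), against 34.5% and 33%. The E-box CACGTG, the core of the site that TFEB binds, was held by 5 members (6.33%), against 9.15% and 6.49%. Both strands were searched, and none of the 4 motifs contains another. Of the 27 members with either CHR form, 25 were lower, with a median of -1.61 (trend removed -0.46). Of the 52 members without one, 39 were lower, with a median of -0.995 (trend removed -0.19). Over all listed genes, 52.4% were lower. The CCAAT box went the other way, with a median of -0.91 (trend removed -0.20) for the 44 members with it. For the 35 without it the median was -1.36 (trend removed -0.34). The 5 members with an E-box had a median of -1.13 (trend removed 0.17). The 74 without one had -1.24 (trend removed -0.28). Either CHR form was found in 9 of 13 mitotic kinesins and spindle proteins, as printed above for KIF11, CEP55 and ASPM, and in 2 of 13 transport kinesins. The CHR letters are rich in A and T, and the median GC content of these promoter windows was 62.0% for the members and 65.7% for listed genes.

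Reads were counted by a method whose use of strand is not given in the sources used here, so genes that overlap others are less certain. None of the 93 members has more than 25% of its exon bases inside another gene of GENCODE 29, and the highest share was 22.8% for CENPN. In all, 15 members have a named pseudogene copy that could share reads with them, among them AURKA, BUB1, BUB3, CENPI and CCNB1IP1.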

How the data were processed

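The authors extracted poly(A) RNA, prepared libraries with the NEBNext Ultra kit and had them sequenced by Novogene. The submitters' processing notes name CASAVA 1.8, HISAT2 2.1.0 and edgeR with GRCh38/hg38, and the methods name DESeq2. The counting program and its use of strand are not given in the sources used here. The authors deposited 1 table with a normalized signal for 5 libraries, in which gene read counts are divided by 1 size factor per library, and counts for DU145-vector replicate 3, whose size factor is 1. The columns headed NC were taken as DU145-vector. Every signal value was a whole number of reads within 0.02. The authors' group means, log2 fold changes and p-values, deposited beside them, were not used, and gene lengths were.

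Log2(normalized count + 1) was tested with limma 3.58.1 (mean-variance trend, no block, R 4.3.3) over all 10542 genes with Benjamini-Hochberg adjustment. A DEG was a gene with adjusted p below 0.05 whose log2 fold change exceeded 1.5 in size, and no gene was filtered out. GC content came from GENCODE 29, where positions were the same for 10531 genes. For the 93 members the exon bases there equalled the deposited gene length, which was not compared for the other genes. The GC and length trend was each library's loess fit (span 0.5) of deviations from gene means. Each library counted as a replicate, as labelled. Within a group every pair of libraries differed by more than sampling noise, which does not tell separate cultures from separate preparations. Same-numbered libraries did not deviate together (correlations -0.0178, -0.246 and -0.141), so the numbers were not taken as pairs. The fits were tested on simulated data. Alternatives on the recovered reads used edgeR 4.0.16 and DESeq2 1.42.0.

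The members, role groups and lists of other mitotic genes were chosen with earlier results of these data known. Of 158 names on those lists, 130 were listed and the others were not analysed here. Named members are the lowest, highest and most abundant of each role group and a set of well-known mitotic genes, and named list genes the lowest and highest of each list.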

Additional observations from a re-analysis of the deposited data

How the results depend on the processing

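The direction of each of the 93 members was kept with a pseudocount of 0.5 or 10, with at least 10 reads in every library (92 members), with size factors estimated again by DESeq2 or TMM, with DESeq2 or edgeR on the recovered reads (29 lower DEGs each), among protein-coding genes only and without each library in turn. Quantile normalization reversed CEP68 alone, to 0.05. Estimated DESeq2 size factors moved the median of all listed genes from -0.36 to -0.12, and left 19 lower and 2 higher DEGs among the members (10.5% and 4.42% of all listed genes) with a median of -0.89. Quantile normalization moved it to -0.03 and left 17 lower and 2 higher DEGs (7.66% and 5.34% of all) with a median of -0.86. At a fold-change threshold of 1, members gave 50 lower and 3 higher DEGs, and other mitotic genes 62 lower DEGs, where 31.1% and 8.41% of all listed genes passed as lower and higher.

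Removing the GC and length trend left 0 lower DEGs among the members, 0 lower and 0 higher among the other mitotic genes, and a member median of -0.22. It reversed 25 of the 93 members. Among them were AURKB (-0.10), BUB3 (0.24), CCNB1 (0.26), CDK1 (0.31), CENPB (-0.34), CENPE (0.01), CEP131 (-0.26), CEP290 (0.19) and KIF22 (-0.01), with the same values when the replicate block was added. That removal takes out any change that runs along GC content or length, whatever its origin. The replicate block alone left 30 lower DEGs and a median of -1.13, and took CENPA to an adjusted p of 0.0505. The block with the trend removed gave the same 0 lower DEGs and 0 lower and 0 higher DEGs among the other genes, with a median of -0.22.

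Leaving out each library in turn gave 22 to 34 lower DEGs (22 without DU145-TFEB replicate 2, where 12.2% of all listed genes passed), 0 to 0 higher DEGs and a median of -1.22 to -1.04 for the members. For the other mitotic genes it gave 32 to 49 lower and 0 to 1 higher DEGs, the higher one, SPC24, being lost without DU145-TFEB replicate 2 or DU145-vector replicate 2. Over the same fits, 12.2% to 19.4% of all listed genes were lower DEGs and 2.31% to 2.8% were higher DEGs. TFEB lay between 5.61 and 5.64. The causes were not tested.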
